A study of Xenopus laevis with 20 samples.

Results

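Whole-embryo p300-only peaks are genomic intervals at which p300 was called in whole Xenopus laevis embryos while none of the other deposited peak lists had a peak. They were chosen by position: an interval of the whole-embryo p300 list was kept when it shared no base with a p300 peak of gut explants, a β-catenin peak of gut explants or a Smad1 peak of whole embryos. Of the 4555 intervals in the whole-embryo p300 list, 1279 met this rule, or 28.1% (exact 95% interval 26.8 to 29.4), out of 43980 peaks in all 4 lists. The other 3276 overlapped at least 1 of the other lists, and 679 of them overlapped explant p300 and neither effector.

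The whole-embryo p300 list came from 1 ChIP-seq library of wild-type whole embryos at Nieuwkoop-Faber stage 20 with 1 matched input library. The Smad1 list came from embryos of the same stage and genotype, and the labels name no compound for either whole-embryo library. The explant β-catenin and p300 lists each pooled 4 wild-type ChIP libraries of stage 20, from foregut or hindgut explants of embryos kept in DMSO vehicle or in BIO at 60 μM, which blocks the kinase GSK3 and thereby switches on the Wnt pathway. The series addresses how the Wnt and BMP pathways act together on the genome in progenitors of the foregut and hindgut. Each list was a single call set and the read depth is unknown, so values below describe the lists, no difference could be tested across samples, and the intervals cover counting error only.

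p300 is a histone acetyltransferase that is recruited to enhancers and promoters by DNA-bound transcription factors, and it acetylates histone H3 at active enhancers. It does not bind a DNA sequence of its own, so its sites differ between cell types with the factors they express. At stage 20, a late neurula, the whole embryo holds neural tissue, neural crest, epidermis and mesoderm as well as the endoderm of the gut. A site bound in few cells and a site bound weakly in many cells cannot be told apart in a whole-embryo library.

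Membership of the set also depended on how the lists were thresholded. The whole-embryo p300 list reached down to a −log10 q of 1.30, whereas the lowest −log10 q was 19.96 in explant p300, 75.6 in β-catenin and 11.1 in Smad1. A p300-only peak is therefore a site without a listed peak in the other data, which does not show that p300 was absent from the gut explants there. The nearest calls on either side of the overlap rule had folds from 3.98 to 7.52. The 3 p300-only peaks closest to another list were on chromosomes 7L (50637888 to 50637994), 6S (82927259 to 82927337) and 9_10S (74979385 to 74979479). They lay 5, 9 and 12 bp from it, with folds of 7.52, 3.98 and 4.81. The 3 smallest overlaps that removed a peak from the set were 1, 42 and 44 bp, at peaks of 4.89-fold, 5.30-fold and 4.08-fold enrichment.

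The p300-only peaks were narrower than the rest of the list, with a slightly lower median fold. Their median fold enrichment, the authors' ratio of ChIP pileup over local background at the summit, was 5.05 (95% interval of the median 5.03 to 5.23), with quartiles of 4.31 and 6.42. The other whole-embryo p300 peaks had a median of 5.44 (interval 5.41 to 5.44) and quartiles of 4.63 and 6.32. The median score, which is 10 times the −log10 q, was 35 in the p300-only peaks and 34 in the others. The p300-only peaks had a median width of 97 bp (quartiles 81 and 126 bp) against 129 bp (quartiles 94 and 181 bp). The 679 peaks shared with explant p300 alone were closer to them, with a median of 5.23-fold (interval 5.03 to 5.44). Their median score was 32 and their median width 113 bp. The share of p300-only peaks was 41.0% in the narrowest width tertile of the list, 30.2% in the middle tertile and 13.0% in the widest. When every whole-embryo peak was redrawn as 200 bp on each side of its summit, 1269 were p300-only. Why the share fell with width was not tested. Peaks that overlapped all 3 other lists had the highest medians of any overlap class, at 5.64-fold and a width of 151 bp over 1582 peaks. Peaks that overlapped only Smad1 (157 peaks, 4.98-fold) or only β-catenin (138 peaks, 4.92-fold) had medians slightly below that of the p300-only peaks.

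The medians hid a wide spread, because the p300-only peaks held both extremes of the list. A fold of at least 10 was reached by 68 of the 1279 p300-only peaks (5.32%, interval 4.15 to 6.69), beside 2.28% of the whole list and 36 of the 3276 other peaks (1.10%, interval 0.771 to 1.52). A fold under 3 was found in another 68 p300-only peaks (5.32%), beside 1.56% of the whole list and 3 of the other peaks (0.0916%, interval 0.0189 to 0.267). The p300-only peaks thus made up 65.4% of the 104 peaks of at least 10-fold and 95.8% of the 71 peaks under 3-fold. Between 4-fold and 8-fold, where most of the list lay, their share was 22.3% to 25.3%.

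**Figure D1:**
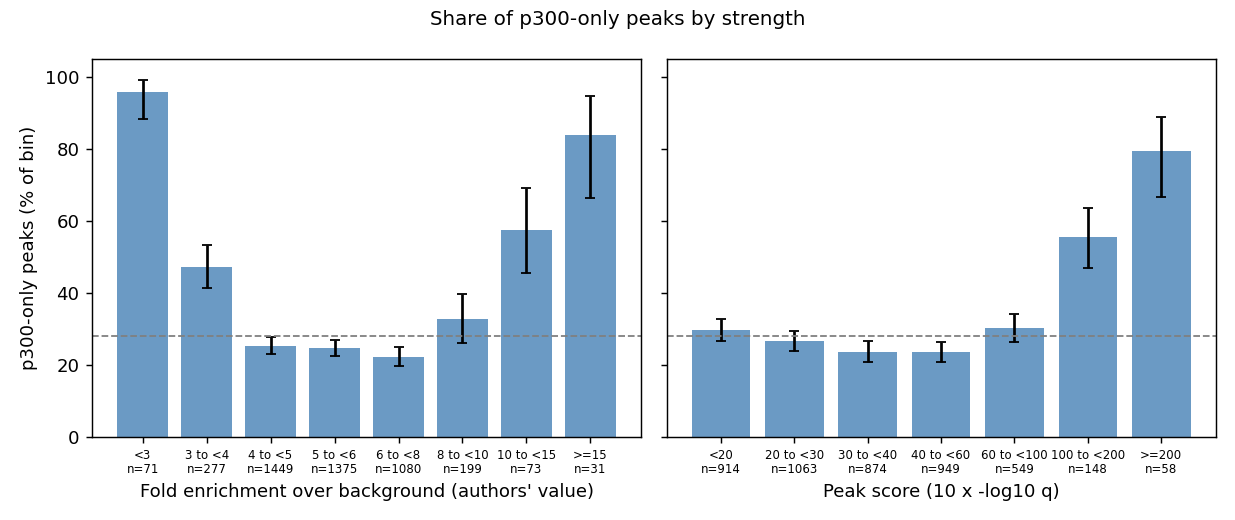
Bars give the percentage of whole-embryo p300 peaks in each bin of the authors' fold enrichment (left) or score (right) that were p300-only, with exact 95% intervals and the number of peaks in the bin; the dashed line is the share over the whole list. The share was 95.8% under 3-fold and 83.9% from 15-fold upward, and 79.3% at scores of at least 200.

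With all peaks counted, the excess at high fold was present in each width tertile. In the middle tertile of widths (97 to 146 bp), 42 of 459 p300-only peaks (9.15%) and 6 of 1059 other peaks (0.567%) reached 10-fold, although the medians of both groups were the same to 2 decimals, at 5.01. In the widest tertile the figures were 16 of 198 (8.08%) and 29 of 1321 (2.20%), and in the narrowest tertile 10 of 622 (1.61%) and 1 of 896 (0.112%). These counts include neighbouring peaks of the dense stretches described below, which held 27 of the 68 p300-only peaks of at least 10-fold. All 4 peaks of the stretch on chromosome 8L, at widths of 181 to 816 bp, fell in the widest tertile. The tertiles were not computed without the dense stretches, so how much of the excess would remain in each is not known.

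The score order showed the same top end. Of the 100 whole-embryo p300 peaks with the highest scores, 72 were p300-only, and of the first 10, 9 were. Among peaks scoring at least 200, 46 of 58 were p300-only (79.3%, interval 66.7 to 88.8), against 23.5% of those scoring 40 to 60. The highest-scoring whole-embryo peak outside the set lay on Scaffold152771 from 10 to 128 (20.9-fold, score 563) and overlapped explant p300 only.

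The strongest p300-only peaks stood in short dense stretches of the genome. The 10 highest scores fell on Scaffold20 (5 peaks), chromosome 8L (3 peaks), Scaffold15940 and chromosome 5S, with folds of 19.9 to 41.5. The peak on Scaffold15940, from 622 to 825, had 19.9-fold enrichment and a score of 663, on a sequence with no peak of another list. The 3 stretches described next were the runs of 4 or more p300-only peaks whose neighbouring summits lay within 12500 bp of each other, a definition chosen after the values were seen. They held 30 of the 1279 peaks and 27 of the 68 peaks of at least 10-fold. No whole-embryo p300 peak outside the set lay within them.

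The first stretch spanned 7.68 kb of Scaffold20, from 1315746 to 1323422, and held 6 peaks. Its leading peak, from 1317147 to 1317305, had a 41.5-fold enrichment and a score of 1028, the highest of the list in both. The peaks beside it had folds of 38.8, 26.5, 32.4 and 34.8, and the last, which stood 4481 bp beyond the others, had 22.3. Even the lowest fold of the 6 exceeded that of every peak of the list that overlapped another list (highest 20.9), although its score of 404 was below the highest among those peaks, 563. The nearest peaks of other lists were an explant p300 peak 5217 bp away, a β-catenin peak 10536 bp away and a Smad1 peak 10662 bp away.

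The second stretch spanned 13.3 kb of chromosome 5S, from 81719243 to 81732583, and held 20 peaks, the most of any run. The strongest lay from 81726547 to 81726688 with 23.5-fold enrichment and a score of 452. Fold enrichment ran from 6.72 to 23.5 with a median of 13.1, and 17 of the 20 peaks reached 10-fold. The peaks were narrow, at 81 to 245 bp (median 109.5 bp), and together covered 18.5% of the stretch. Neighbouring summits were 193 to 2323 bp apart (median 601 bp), at irregular steps, and 15 of the 19 steps were under 1 kb. A Smad1 peak lay 297 bp outside one end, whereas the nearest explant p300 and β-catenin peaks were 108884 and 127819 bp away.

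The last stretch spanned 8.53 kb of chromosome 8L, from 2930164 to 2938690, with 4 peaks of 32.2-fold, 20.2-fold, 26.6-fold and 21.8-fold enrichment. The last of these, from 2937875 to 2938690, was the widest p300-only peak, at 816 bp, and held 4 summits. The nearest peak of another list, for β-catenin, was 79537 bp away. A further 4 p300-only peaks of at least 10-fold were found elsewhere on chromosome 8L, and 6 were on chromosome 1S.

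**Figure D2:**
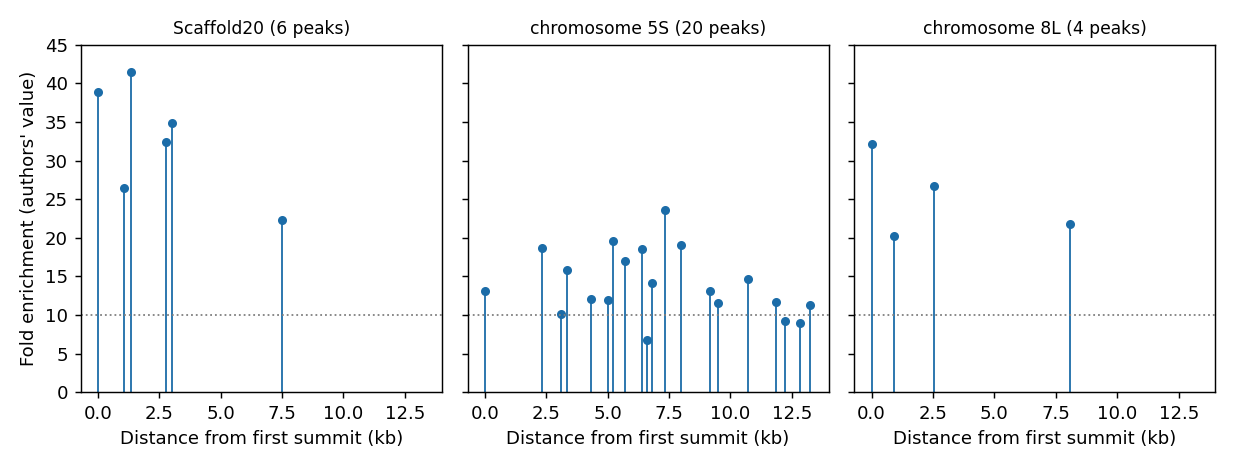
Each point is the summit of a p300-only peak, placed by its distance in kb from the first summit of its stretch, with the authors' fold enrichment as height; the dotted line marks 10-fold. The 6 peaks on Scaffold20 reached 22.3-fold to 41.5-fold, the 20 on chromosome 5S 6.72-fold to 23.5-fold and the 4 on chromosome 8L 20.2-fold to 32.2-fold.

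Without these 3 stretches, 41 of 1249 p300-only peaks (3.28%, interval 2.37 to 4.43) were at least 10-fold. The top of the list depended on them, since 3 of the 10 highest scores and 58 of the 100 highest then belonged to p300-only peaks. The remaining strong peaks were mostly single. The highest on chromosome 1S, from 43715614 to 43716112, had 20.2-fold enrichment over 499 bp with 2 summits and lay 428 bp from a Smad1 peak. The highest on chromosome 1L, from 5817653 to 5817753, had 18.2-fold enrichment and its nearest peak of another list, for β-catenin, was 84934 bp away. Peaks of 15.8-fold stood on chromosomes 2L (125125635 to 125125728) and 9_10S (49327856 to 49327971).

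Not every leading peak of a chromosome had a high fold. Over the 18 chromosomes, the fold of the highest-scoring p300-only peak ranged from 3.71 on chromosome 2S to 32.2 on chromosome 8L. On chromosome 3L, the leading peak from 4453545 to 4453642 had a score of 265 at a fold of 3.75. The leading peak of chromosome 5L, from 42559979 to 42560182, scored 330 at 5.49-fold, and one at the start of Scaffold6844, from 15 to 348, scored 338 at 6.43-fold. The leading peaks of chromosomes 2S (49316199 to 49316410, 3.71-fold), 7L (117187039 to 117187149, 4.66-fold), 9_10L (77131672 to 77131759, 4.24-fold), 6S (33074104 to 33074283, 5.08-fold) and 4S (13181891 to 13181995, 5.80-fold) were of the same kind, with scores of 135, 229, 203, 160 and 121. Scaffold79 carried one of the widest p300-only peaks, 588 bp from 401696 to 402283, at 5.13-fold and a score of 239. On chromosomes 3S, 6L, 7S and 8S the leading peaks instead had folds between 12.2 and 13.2, and on chromosome 4L the highest score was 86, at 8.63-fold. In MACS2's arithmetic a high score at a low fold can arise where both the ChIP pileup and the local background are high. Whether this held at the peaks named here was not tested. A score of at least 100 with a fold under 7 was found at 28 p300-only peaks (2.19%, interval 1.46 to 3.15), 12 of them on scaffolds, and at 3 of the other peaks (0.0916%).

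The low-fold end was of a different make. The 68 p300-only peaks under 3-fold had scores of 13 to 160 (median 28), and none lay in a dense stretch. The lowest folds were 1.45 on chromosome 7S (44683468 to 44683584), 1.47 on chromosome 1L (2930097 to 2930181) and 1.52 on chromosome 6L (1115697 to 1115810). They passed the q threshold with scores of 15, 18 and 17. Of the 68, 29 were on scaffolds, where they made up 13.2% of the 220 p300-only peaks, against 3.68% of the 1059 on chromosomes.

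Scaffolds are sequences that were not placed on a chromosome in the assembly the authors used. The rule itself raised their share of p300-only peaks, as described below. Scaffolds held 17.2% of the p300-only peaks (220 of 1279, interval 15.2 to 19.4). They held 6.11% of the other whole-embryo p300 peaks (interval 5.31 to 6.98) and 9.72% of those shared with explant p300 alone (interval 7.60 to 12.2). The 220 peaks were spread over 167 scaffolds, of which 149 held 1 each, and Scaffold20, with 16, held the most. On scaffolds, 42.3% of the p300-only peaks began in the first 500 bp of the sequence (interval 35.7 to 49.1), against 25% of the others (interval 19.2 to 31.6). For the 66 scaffold peaks shared with explant p300 alone it was 30.3% (interval 19.6 to 42.85), which overlapped the interval of the p300-only peaks. Every p300-only peak that began in the first 500 bp was on a scaffold without a peak of the other 3 lists. On such a scaffold the rule makes each whole-embryo p300 peak p300-only, so the difference in starts cannot be separated from the rule. The median fold was 5.03 on scaffolds and 5.08 on chromosomes, whereas the median score was higher on scaffolds, at 40.5 against 34. A fold of at least 10 was reached by 15 of the 220 scaffold peaks (6.82%) and 53 of the 1059 on chromosomes (5.005%). For 127 p300-only peaks (9.93%), on 124 sequences, the sequence held no peak of the other 3 lists. By the rule, such a sequence can hold no whole-embryo p300 peak outside the set. All 127 were on scaffolds, since every p300-only peak on a chromosome had a peak of another list on its sequence. Membership was thus fixed for these 127, and the scaffold shares were not recomputed without them. The scaffold shares given here therefore do not show an excess on scaffolds apart from the rule. Repeat content and mappability, which can differ on unplaced sequence, were not tested.

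On the named chromosomes, the share of whole-embryo p300 peaks that were p300-only was lower than on scaffolds, where the rule fixed part of the membership. It ran from 20.4% on chromosome 4L (interval 15.6 to 25.9) to 35.4% on chromosome 5S (interval 28.6 to 42.7). Without the dense stretch, chromosome 5S stood at 27.8% (interval 21.2 to 35.2), and its interval overlapped those of all the other chromosomes. Xenopus laevis is an allotetraploid whose chromosomes come as long (L) and short (S) homeologues from its ancestral parents. Of the p300-only peaks on named chromosomes, 54.9% were on L chromosomes (interval 51.8 to 57.9), beside 58.6% of the other whole-embryo p300 peaks (interval 56.8 to 60.3), and the intervals overlapped. Toward chromosome ends the values differed more. The outer 5% at either end of each chromosome, measured to the last peak, held 14.4% of the p300-only peaks (interval 12.3 to 16.6), 8.97% of the other peaks (interval 7.99 to 10.04) and 13.5% of those shared with explant p300 alone (interval 10.9 to 16.5).

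**Figure D3:**
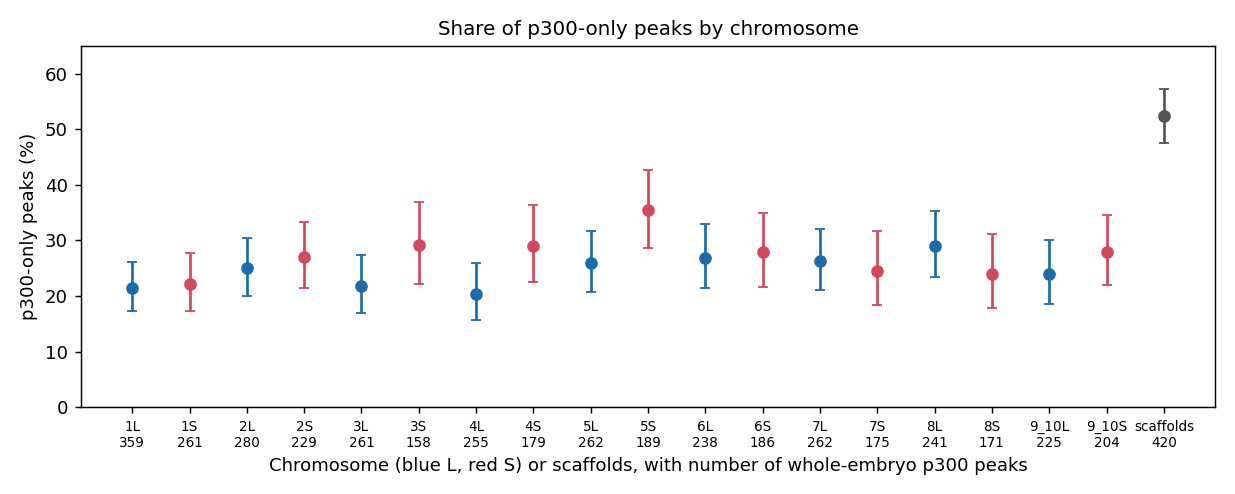
Points give the percentage of whole-embryo p300 peaks on each chromosome, or on all scaffolds together, that were p300-only, with exact 95% intervals; blue marks L and red S chromosomes, and the numbers under the names count whole-embryo p300 peaks. Scaffolds stood at 52.4%, above all 18 chromosomes, which ran from 20.4% to 35.4%. The scaffold value includes 127 p300-only peaks on sequences without a peak of another list, where the rule makes every whole-embryo p300 peak p300-only.

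Most p300-only peaks had no peak of the other lists within 5 kb. The nearest peak of any of the 3 lists was a median of 35.8 kb away, edge to edge, and 555 of the 1279 peaks (43.4%) had none within 50 kb. These values count the 127 peaks without such a neighbour on their sequence as beyond any distance. On named chromosomes alone the median was 24.9 kb, and 389 of 1059 peaks (36.7%) had none within 50 kb. Only 70 peaks (5.47%, interval 4.29 to 6.87) had a neighbour within 1 kb, and 271 (21.2%) within 5 kb. Explant p300 and β-catenin peaks were about equally far, at medians of 70.01 and 73.2 kb, and Smad1 peaks, whose list was shorter, at 187.8 kb. Peaks on sequences without the list in question again counted as beyond any distance. Within 5 kb there was an explant p300 peak for 14.5%, a β-catenin peak for 12.2% and a Smad1 peak for 8.6% of the p300-only peaks.

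Whole-embryo p300 peaks shared with explant p300 alone offer a partial comparison, because they too overlapped neither effector. By the rule they lay on an explant p300 peak and the p300-only peaks on none, and the β-catenin list also came from explants. The distances below cannot be separated from that difference. A β-catenin or Smad1 peak lay within 10 kb of 22.8% of the p300-only peaks (interval 20.6 to 25.2) and of 33.6% of the 679 shared peaks (interval 30.03 to 37.3). The median gap was 58.3 kb against 23.7 kb. On named chromosomes alone the shares were 26.1% (interval 23.4 to 28.8) and 35.4% (interval 31.6 to 39.3), with medians of 41.0 and 19.9 kb. Within 1 kb the shares differed less than their counting error, at 3.44% and 3.98%.

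**Figure D4:**
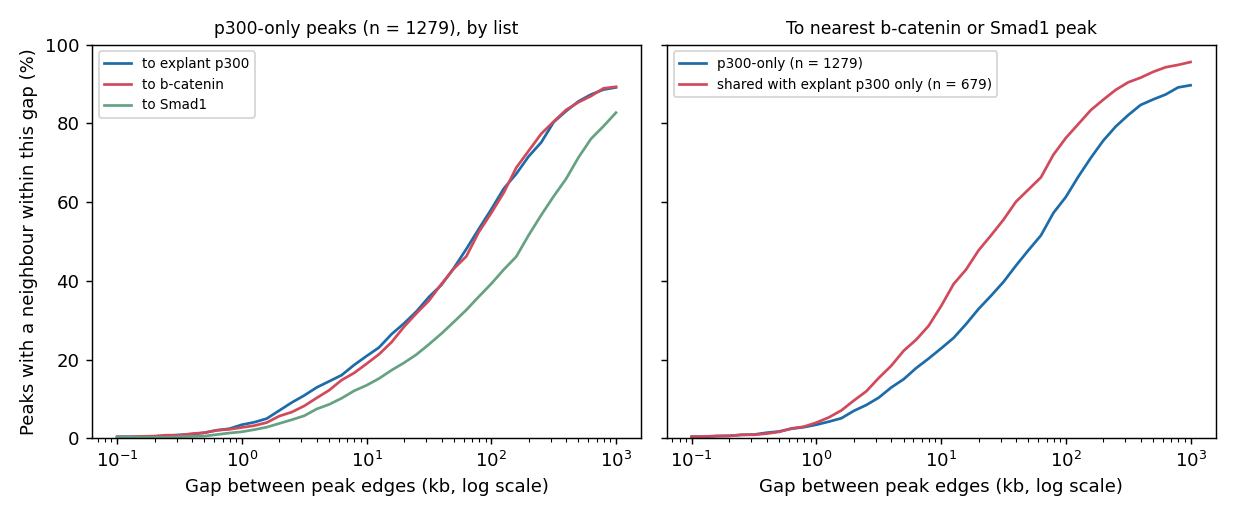
Curves give the percentage of peaks with a neighbour within a given gap, in kb between peak edges on a log axis: p300-only peaks to each other list (left), and p300-only peaks beside the 679 peaks shared with explant p300 alone to the nearest β-catenin or Smad1 peak (right). At 10 kb the right-hand curves stood at 22.8% and 33.6%.

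High folds occurred at most distances from the other lists. The 70 with a neighbour within 1 kb included 2 peaks of at least 10-fold, and those 201 with a gap of 1 to 5 kb included 6. The 453 with a gap of 5 to 50 kb included 31 (6.84%). Of these, 12 were from the dense stretch of chromosome 5S and 6 from that of Scaffold20, while another 4 of the 6 at 1 to 5 kb and 1 of the 2 within 1 kb were also from chromosome 5S. Beyond 50 kb there were 21 among 428 peaks (4.91%), 4 of them from the stretch on chromosome 8L. There were 8 among the 127 peaks on sequences without another list's peak (6.30%). With the dense stretches counted, the share did not rise steadily with distance. The shares were not computed without the stretches, which supplied most of the high folds at gaps of 5 to 50 kb, so no trend with distance is read from them. Median scores were 25 for the 11 peaks within 200 bp of another list, 32 at gaps of 5 to 50 kb, 38 beyond 50 kb and 43 on sequences without another list's peak. Folds under 3 were found in 22 of the 127 peaks on sequences without another list's peak (17.3%), beside 5.32% of all p300-only peaks. Beyond 50 kb their share was close to that of all p300-only peaks, at 24 of 428 (5.61%), and at gaps of 1 to 5 kb it was 1 of 201 (0.498%).

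The p300-only peaks also lay farther from other p300 sites of the embryo than the other whole-embryo peaks did. The nearest other whole-embryo p300 summit was a median of 225.8 kb away, against 34.3 kb for the other whole-embryo peaks. Peaks alone on their sequence counted as beyond any distance, which held for 133 of the 1279 p300-only peaks and 71 of the 3276 others. Values for chromosomes alone, or for the peaks shared with explant p300 alone, were not computed. Within 5 kb, 10.5% of the p300-only peaks (interval 8.85 to 12.3) had such a neighbour, against 22.1% of the other peaks (interval 20.7 to 23.5), and without the dense stretches the share was 8.41% (interval 6.93 to 10.09). Joined at 5 kb, 84 of the 1279 peaks (6.57%) stood in runs of p300-only peaks. These were 23 pairs, 4 runs of 3 peaks and the runs of 6 and 20 peaks on Scaffold20 and chromosome 5S, while 1195 peaks stood alone. Several summits were given for 28 of the 1279 p300-only peaks (2.19%) and 130 of the 3276 others (3.97%). Most of the 130 overlapped all 3 other lists, the class with the highest median width. Apart from that class, only peaks on explant p300 and Smad1 together had a higher share than the p300-only peaks. Among peaks shared with explant p300 alone it was lower, at 8 of 679. Peaks of equal width were not compared.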

How the data were processed

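ChIP-seq peaks were taken from 4 deposited lists in the MACS2 narrow-peak layout, without headers. The submitters' processing notes list MACS2, Bowtie2, Trimmomatic, FastQC, SAMtools and Picard; their versions and roles are not stated there, and the build was not given in the sources used here. Per the labels and peak names, the explant lists pool foregut and hindgut, DMSO and BIO libraries; the Smad1 peak names also speak of a pool, although 1 Smad1 ChIP library is labelled. The titles of these 3 lists name IDR (a filter on reproducible peaks, settings not stated), and that of the whole-embryo p300 list does not. The deposited score, the fold (a ratio over local background), the −log10 q value and the summit offset (bp) are the authors' values per peak. In the whole-embryo p300 list the score is 10 times −log10 q. Its 4727 lines hold 4555 intervals, each kept once with its highest score, and 14 lines give no summit, for which the midpoint was used.

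Overlap meant at least 1 shared bp. Gaps run between peak edges, and runs join summits within 5 kb. Shares have exact Clopper-Pearson 95% intervals and medians binomial order-statistic intervals (scipy 1.17.1, pandas 2.3.3, Python 3.11.15). The 20 samples form groups of 1 library, so no test was made; depth is unknown. Overlap counts were checked against bedtools 2.31.1 and on simulated intervals. The members and lists were chosen with earlier results of these data known. Named regions followed a rule: the 10 highest scores, the highest of each chromosome and of each run of 5 or more, the widest, and those nearest the overlap rule; the lowest folds, the high scores at low fold and others beside them were named after their values were seen. No genome was used, and the gene table at hand reached over 1 Mb past the last peak on 18 of 18 chromosomes, so genes, motifs and sequences are not analysed here.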

Additional observations from a re-analysis of the deposited data

How the results depend on the processing

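Over 65 alternatives of 7 values, 51 stayed within 1.5 times the main count or within the interval of the main value. All values under an overlap of 50% of the shorter peak (1282 peaks), other lists extended by 200 bp (1268), whole-embryo peaks redrawn as 200 bp on each side of the summit (1269), named chromosomes only (1059) and the lowest-scoring row of an interval (1279) did so. The higher-scoring 50% of the list left 648 p300-only peaks, with a median fold of 6.38, 79.8% on named chromosomes, 8.64% in runs and 10.5% at 10-fold or more. A −log10 q of at least 2 gave a median fold of 5.60 and 6.75% at 10-fold or more. Both settings remove weak peaks by construction. With explant p300 as the only excluding list, 1761 peaks remained, 86.3% on named chromosomes, 31.4% within 1 kb of another list (overlaps with β-catenin and Smad1 then count) and 4.09% at 10-fold or more. Counting 5 kb as near gave 21.2%, and joining runs at 12500 bp gave 8.68% in runs. Without the 3 dense stretches, a setting chosen after seeing the data, 4.40% were in runs and 3.28% were at 10-fold or more. The share on L chromosomes stayed between 53.6% and 55.8% throughout. No paired analysis was possible because each group holds 1 library and no test was made. Planned distances to gene starts and motif shares were not run, since they need a genome of the files' build. Unknown depth limits any statement on sites missing from a list.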
